A study of Mus musculus with 9 samples.

Results

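The converted and the resident macrophages of the peritoneal cavity were compared across all genes, from the 3 libraries titled converted and the 3 titled resident, 6 of the 9 RNA-seq libraries of the study. All mice carried Cx3cr1CreERT2-IRES-EYFP/+ and Rosa26-stopfl-tdTomato/+, a tamoxifen-inducible Cre driven by Cx3cr1 and a Cre-dependent red reporter, each on 1 allele. All received IL-4 complexes, 5 µg of IL-4 with 25 µg of anti-IL-4 antibody every other day, starting 4 days before the macrophages were taken. Mice of the converted group had earlier received 2 ml of thioglycollate, which recruits monocytes from the blood, and stayed on tamoxifen diet for 10 weeks. For the resident group the labels name no treatment beyond IL-4 complexes. The 3 monocyte-derived libraries, harvested 4 days after 2 ml of thioglycollate, are quoted only beside the others. The cells were sorted by flow cytometry. No source used here gives the sort gates, the ages of the mice or whether each library is a different mouse. The p-values therefore reflect library-to-library spread alone, and that spread may be technical. Earlier thioglycollate, the tamoxifen diet and the origin of the cells cannot be told apart. The libraries of each group also share a number in the names of their deposited tables whose meaning is not stated, so a batch and a group cannot be told apart either.

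The resting peritoneal cavity holds large macrophages that depend on the transcription factor GATA6, which retinoic acid from the omentum induces, and a smaller set of monocyte-derived macrophages that carry CCR2 and MHC class II. After inflammation, recruited monocytes can settle and take on features of the resident cells over weeks. IL-4 drives macrophages of either origin into alternative activation, with high arginase and chitinase-like proteins, and makes resident macrophages divide in place. The comparison asks how closely settled cells had come to match the resident ones, and in which genes the libraries still differed.

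The 6 libraries held 18320223 to 20496258 reads in genes, a depth alike in both groups. Genes with at least 1 read numbered 18636 to 18677 in the converted and 19360 to 19922 in the resident libraries, and every converted library was below every resident one (exact permutation test, two-sided p = 0.1, the smallest that 3 against 3 libraries allow). Mitochondrial genes took 0.332% ± 0.0199 of the reads in the converted and 0.556% ± 0.0541 in the resident libraries (SD, n = 3 each), without overlap. Macrophage markers were high in both groups. Adgre1, which encodes F4/80, measured 2672 to 3417 CPM (reads per 1000000 after scaling) in the converted and 2946 to 3011 CPM in the resident libraries, Csf1r 1074 to 1159 and 1064 to 1137 CPM, and Itgam 1183 to 1285 and 1174 to 1229 CPM. Fcgr1, which encodes the high-affinity IgG receptor, was at most 0.683 CPM in all 6. By the root mean square of log2 differences, pairs of converted libraries lay 0.417 to 0.481 apart and pairs of resident libraries 0.330 to 0.353. A converted and a resident library lay 0.613 to 0.772 apart. Libraries of either group lay 1.45 to 1.58 from the monocyte-derived ones.

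Of 13223 genes tested, 803 (6.07%) differed between converted and resident libraries at an adjusted p under 0.05 (edgeR's quasi-likelihood test on all 9 libraries, Benjamini-Hochberg over all genes). The calls were unequal in number and in size. Higher in the converted libraries were 240 genes (1.82%), with a median log2 difference of 0.48, and 18 of them differed at least 2-fold. Lower were 563 genes (4.26%), with a median of −2.26, and 435 of them differed at least 2-fold, so that 3.43% of all genes were called at that size. Among all genes, 20.8% had an unadjusted p under 0.05. DESeq2 called 10.3% (3.99% higher, 6.33% lower) and limma-voom 6.51% (2.09% higher, 4.42% lower). In 37.3% of the genes no converted library overlapped a resident one, with the converted libraries above in 19.6% and below in 17.7%. Upper-quartile scaling moved the split to 133 higher and 606 lower. Fitting the 6 libraries alone, which removes the wider spread of the monocyte-derived libraries, called 2067 of 12720 genes (16.2%), 900 higher (7.08%) and 1167 lower (9.17%), and 785 of the 803 were among them. The number of calls fell to 361, 535 and 354 without converted libraries 1, 2 and 3, and to 295, 400 and 245 without resident libraries 1, 2 and 3, and rose to 1628 without monocyte-derived library 1. Counts of list members are from the 9 libraries unless stated, with the 6-library count beside most of them. They are to be read beside the shares of all genes called, 6.07% with 9 libraries, 16.2% with 6 and 10.3% by DESeq2. With 6 libraries fewer members of some lists were tested.

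**Figure D1:**
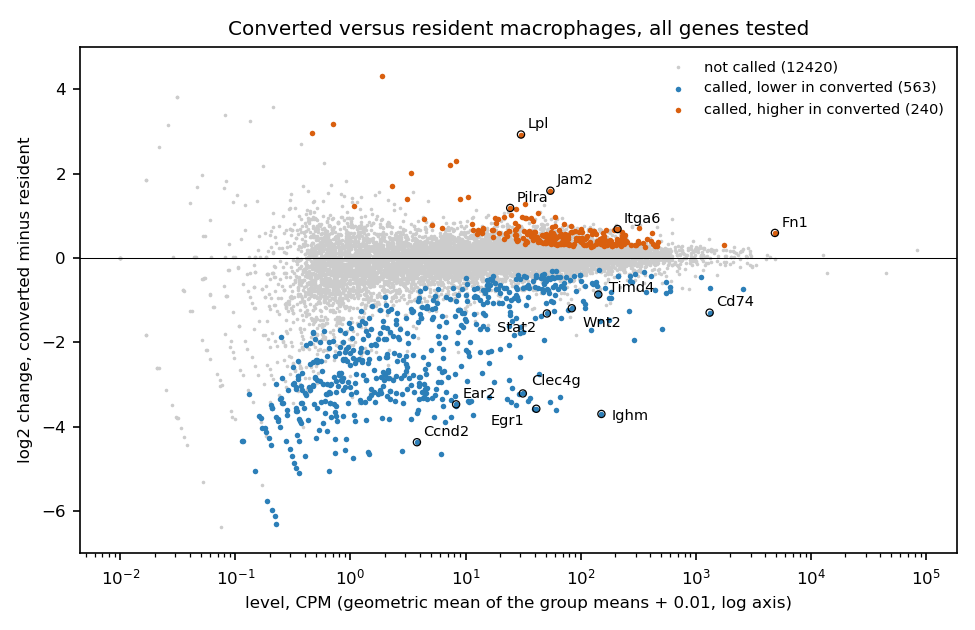
Log2 difference, converted minus resident, of each of the 13223 genes tested (y axis) against its level in CPM (x axis, log scale). Blue points are the 563 genes called lower in the converted libraries and orange points the 240 called higher; grey points were not called. The lower calls reach further from 0 and lie mostly at lower levels than the higher calls.

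Transcripts of B cells made up the most depleted group. Ighm, the heavy chain of IgM, measured 25.2, 73.6 and 27.4 CPM in converted libraries 1, 2 and 3 and 491, 542 and 604 CPM in the resident ones, a log2 difference of −3.70 ± 0.46 (SE; adjusted p = 0.00305). Ms4a1, which encodes CD20, measured 9.77, 30.6 and 12.7 CPM against 189.8, 204 and 249 CPM (log2 −3.60 ± 0.42, adjusted p = 0.00261). Converted library 2 was the highest of its group for both and still far below every resident library. Of the 30 B-cell genes tested, 27 were lower and none higher (28 and none with 6 libraries), with a median log2 difference of −3.32 against 0.01 over all genes, and the count stayed between 22 and 28 when each library was left out. The summed level of the list was 165, 326 and 178 CPM in the converted libraries and 1797, 1952 and 2324 CPM in the resident ones, and 62.8 to 135 CPM in the monocyte-derived ones. No member of the list was at 0 in either group. Antigen receptor segments moved with it: 60 of 61 immunoglobulin variable segments, 7 of 8 constant segments and all 3 T-cell receptor constant segments tested (Trac, Trbc1 and Trbc2) were lower. Segments of a family share sequence, so reads may be split among them.

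Members of the T-cell, natural killer, mast cell and dendritic cell lists and 1 gene of the eosinophil list were also lower. Of 16 T-cell genes 9 were lower (14 with 6 libraries), among them Lck, the proximal kinase of the T-cell receptor, at 0.299, 0.578 and 0.619 CPM against 4.46, 3.46 and 8.08 CPM (log2 −3.41 ± 0.55, adjusted p = 0.00774). That T-cell count fell to 1 without converted library 1 or 3 or resident library 1 or 3, and to 4 without resident library 2. The summed T-cell level was 5.57 to 13.4 CPM in the converted and 35.4 to 59.3 CPM in the resident libraries. Of 10 genes of natural killer and innate lymphoid cells 4 were lower (Klrk1, Klre1, Gzma and Eomes). With 6 libraries 5 of 7 were lower. The count of 4 fell to 0 without converted library 3 or resident library 1 or 3. It was 1 without converted library 1 or 2 and 7 without monocyte-derived library 3. Klrg1, of the same list, had no read in the converted and 9 reads in the resident libraries. The summed level of that list overlapped, at 167 to 268 CPM in the converted and 249 to 278 CPM in the resident libraries. Most of it was Il1rl1, the IL-33 receptor, which was not called (217 ± 50.5 CPM converted, 233 ± 19.2 CPM resident, SD, n = 3 each). Il5ra, the IL-5 receptor chain of eosinophils and peritoneal B-1 cells, measured 1.196, 1.84 and 1.13 CPM against 10.5, 11.7 and 15.2 CPM (log2 −3.16 ± 0.33, adjusted p = 0.00111). It was lower in every fit with a library left out. Of the 2 eosinophil genes tested it was the 1 called, and the other had a log2 difference of 0.51. The eosinophil sum averaged 2.99 CPM in the converted and 13.7 CPM in the resident libraries, of which Il5ra made up 1.39 and 12.5 CPM.

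None of the tested neutrophil (8), mesothelial or fibroblast (3), endothelial (1), platelet or erythroid (2) and adipocyte (2) genes was called with 9 libraries by edgeR or DESeq2, and 1, a platelet or erythroid gene, had an unadjusted p under 0.05. This gene, Hbb-bt, a haemoglobin chain, was lower with the 6 libraries alone and without monocyte-derived library 1. Pf4, which dominates the platelet sum, was at 331, 304 and 344 CPM against 299, 221 and 270.2 CPM, without overlap and not called (adjusted p = 0.81). Of 6 mast cell and basophil genes 3 were lower (Cpa3, Cma1 and Fcer1a; 4 with 6 libraries), while Hdc, the histidine decarboxylase that dominates that sum, was not (73.5 ± 10.5 and 90.7 ± 17.9 CPM). Kit, the receptor that defines mast cells, had no read in the converted and 32 in the resident libraries. The mast cell count was 0 without converted library 3 or resident library 1 or 3, 1 without converted library 1 or resident library 2, and 5 without monocyte-derived library 3. Of 10 dendritic cell genes 3 were lower (Ccr7, Kmo and Fscn1; 4 with 6 libraries), and 1 without converted library 1 or 3 or resident library 1 or 3, or without a filter on low counts. The eosinophil granule genes Prg2 and Epx had no read in either group. In bulk libraries, fewer cells of a type and less RNA of that type per cell cannot be told apart. The antigen receptor segments (70) and the members of the other-cell lists (39) together made up 19.4% of the 563 lower calls and none of the 240 higher calls. The part of other cells in the remaining lower calls was not tested.

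**Figure D2:**
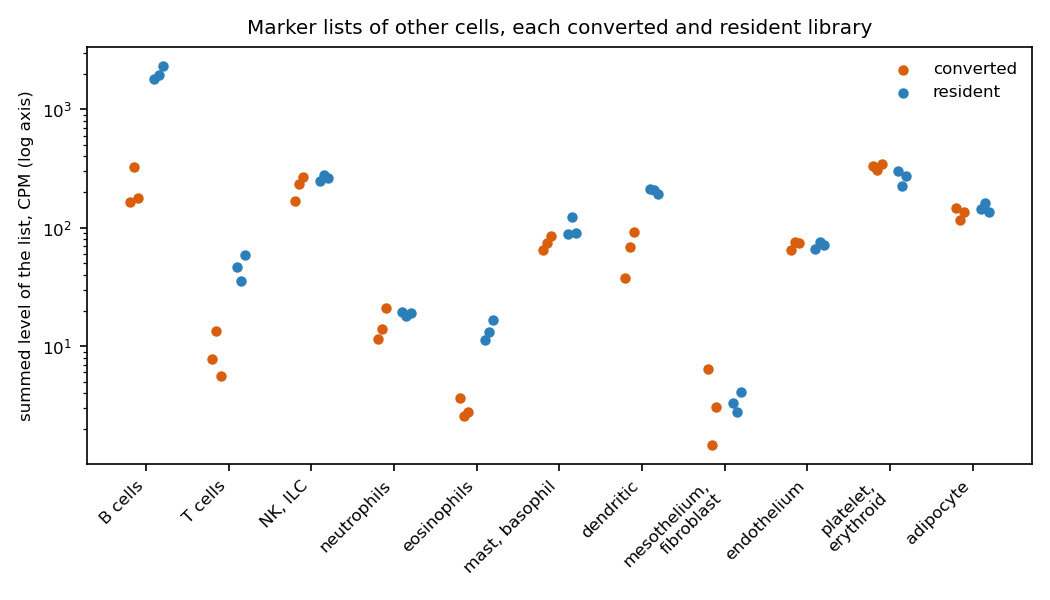
Summed level in CPM (y axis, log scale) of each marker list of another cell type (x axis) in each of the 3 converted (orange) and 3 resident (blue) libraries. The groups lie apart for B cells (165 to 326 against 1797 to 2324 CPM). By less, they lie apart for T cells, eosinophils, mast cells, dendritic cells and platelets, the last with the converted libraries above. In the resident libraries most of the eosinophil sum is Il5ra. The other lists overlap.

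Several of the largest falls were in genes of no other-cell list. Ccnd2, which encodes cyclin D2, measured 0.698, 1.26 and 0.506 CPM in the converted and 19.9, 18.1 and 13.5 CPM in the resident libraries (log2 −4.37 ± 0.51, adjusted p = 0.0025). Mzb1, a chaperone of B-cell and plasma-cell immunoglobulin, had a log2 difference of −3.76 ± 0.43. Those of Cyfip2, Cd83, Gimap3 and the transcription factor Ets1 were −3.51, −3.32, −3.29 and −3.08. All 6 kept their calls whichever library was left out. The GTPase genes of the Gimap cluster, of which Gimap3 is 1, lie side by side on chromosome 6 (48647234 to 48770851, GRCm38), and 7 of the 8 tested were lower. In all 6 genes converted library 2 was the highest of its group, as it was for the B-cell sum. The part of B-cell transcripts in these falls was not tested. The monocyte-derived libraries, with the lowest B-cell sums, held 23.5 to 66.7 CPM of Ccnd2, 51.7 to 125 CPM of Cd83, 8.67 to 12.6 CPM of Cyfip2, 0.405 to 1.36 CPM of Mzb1, 2.31 to 10.9 CPM of Gimap3 and 10.2 to 30.9 CPM of Ets1.

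Most core identity genes of resident cavity macrophages were not called, though a larger share of them was called than of all genes. Gata6, the transcription factor of these cells, measured 177, 132 and 173 CPM in the converted and 159, 163 and 159 CPM in the resident libraries, and 0.587 to 2.08 CPM in the monocyte-derived ones. The converted values spread to both sides of the resident ones, and the log2 difference was 0.01 ± 0.20 (adjusted p = 0.992). Rarb, the retinoic acid receptor beta, stood at 54.1 ± 4.06 CPM in the converted and 51.3 ± 3.74 CPM in the resident libraries. Of the 48 tested genes of this list, 6 were called with 9 libraries and 42 were not, where 6.07% of all genes were called. The list median was 0.03. The 6 called genes split evenly, 3 lower and 3 higher (1 to 4 higher when 1 library was left out). With 6 libraries 6 were lower and 4 higher, where 16.2% of all genes were called. The lower calls numbered 5 without monocyte-derived library 2 and at least 1 without any other library. The libraries on which each call depended are given with the gene.

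The 3 lower genes were Wnt2, Timd4 and Bhlhe41. Wnt2, a secreted Wnt ligand, measured 64.4, 46.8 and 55.1 CPM in the converted and 128, 137 and 114 CPM in the resident libraries, without overlap and 2.28-fold lower (log2 −1.19 ± 0.14, adjusted p = 0.0025). Timd4, the phosphatidylserine receptor TIM-4 that marks long-resident macrophages, measured 96.05, 126 and 94.5 CPM against 190.4, 199 and 187 CPM, also without overlap (log2 −0.87 ± 0.18, adjusted p = 0.0238; 0.000854 with 6 libraries). Both genes were far above the monocyte-derived libraries, where Timd4 measured 0.578 to 1.68 CPM. Bhlhe41, a basic helix-loop-helix repressor, measured 0, 0.368 and 0.0563 CPM against 2.15, 2.098 and 3.33 CPM (log2 −4.10 ± 0.71, adjusted p = 0.0102). The Wnt2 call held whichever library was left out. The Timd4 call did not hold without converted library 1 or 3 or any resident library (adjusted p = 0.0866 to 0.102), nor the Bhlhe41 call without converted library 3 (0.0569) or resident library 3 (0.0624).

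The 3 higher genes were Itga6, Fn1 and Lbp. Itga6, a laminin-binding integrin chain, measured 274, 286 and 236 CPM in the converted and 138, 179.6 and 178 CPM in the resident libraries (log2 0.69 ± 0.12, adjusted p = 0.0108), and its call held whichever library was left out. Fn1, which encodes fibronectin and is among the most abundant transcripts of these cells, measured 6527, 5148 and 6299 CPM against 3359, 4231 and 4317 CPM (log2 0.59 ± 0.13, adjusted p = 0.026). Lbp, the lipopolysaccharide-binding protein, measured 41.5, 42.1 and 72.2 CPM against 32.3, 25.02 and 27.4 CPM (log2 0.88 ± 0.20, adjusted p = 0.0353). In all 3 genes each converted library was above each resident one. Fn1 was not called without converted library 1 or 3 or any resident library (adjusted p = 0.0628 to 0.117), nor Lbp without converted library 3 or any resident library (0.0595 to 0.147) or under a stricter filter on low counts (0.054).

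**Figure D3:**
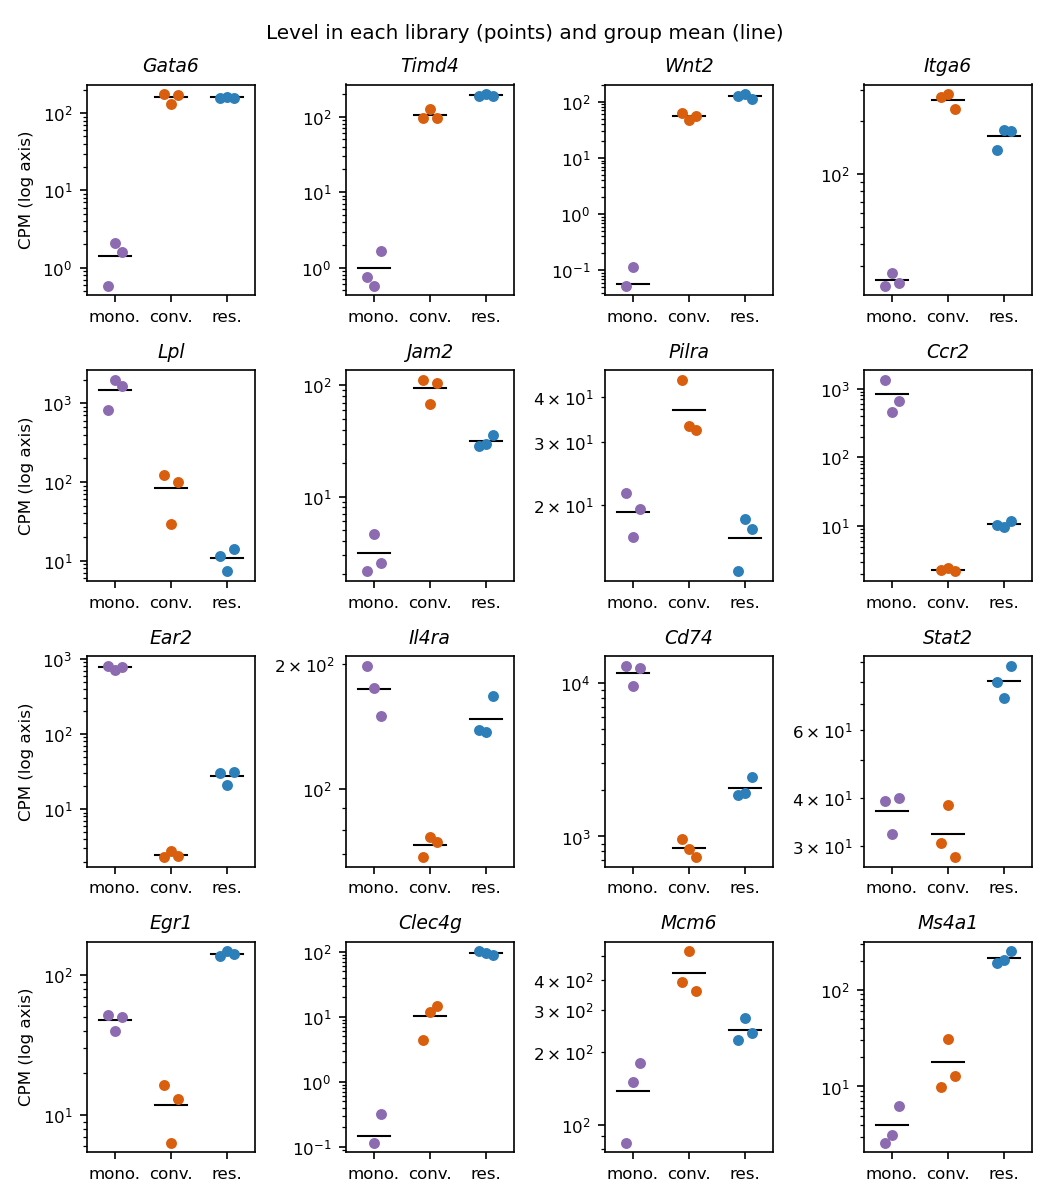
Level in CPM (y axes, log scales that differ between panels) of 16 genes in each monocyte-derived, converted and resident library (points) with the group mean (line); libraries at 0 CPM cannot be drawn on a log axis and are left out of the points. Gata6 overlaps between converted and resident libraries at 132 to 177 CPM, while Wnt2, Ear2, Cd74, Egr1 and Ms4a1 are lower in every converted library and Lpl and Jam2 higher.

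Of 21 tested genes of the small, CCR2-bearing cavity macrophages 8 were lower in the converted libraries and none higher, with a median log2 difference of −1.50, and the 6-library fit called 8 of 18 lower. Ear2, an eosinophil-associated ribonuclease that monocyte-derived macrophages make, measured 2.29, 2.78 and 2.36 CPM in the converted and 30.04, 21.2 and 31.2 CPM in the resident libraries, 11.1-fold lower (log2 −3.47 ± 0.17, adjusted p = 2.43e-05). The monocyte-derived libraries held 723 to 815 CPM of it. Ccr2, the chemokine receptor of recruited monocytes, measured 2.29, 2.47 and 2.19 CPM against 10.3, 9.65 and 11.7 CPM (log2 −2.18 ± 0.40, adjusted p = 0.0148). For both genes the converted libraries, although of the group that had received thioglycollate, were thus the lowest of the 3 groups. The log2 differences were −3.11 for Fcrls, −2.99 for the integrin chain Itgax (CD11c) and −3.86 for the adhesion receptor Cd226. Itgax and Cd226 were low in both groups, with 13 and 5 reads in the converted and 108 and 79 in the resident libraries. Fcrls, Itgax, Cd226 and Ear2 kept their calls whichever library was left out, though Fcrls was not called by limma-voom (0.0835). The other 3 genes called were Cd209d, Napsa and Dpp4, each lost in several of the fits below.

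The count of 8 fell to 5 without converted library 3, resident library 1 or resident library 2, and to 4 without resident library 3 or without a filter on low counts. The sums of other-cell markers moved with this list. That of dendritic cells was 37.4 to 91.7 CPM in the converted and 193 to 213 CPM in the resident libraries. The lectin gene Cd209a alone measured 16.8 to 76.1 CPM in the converted and 160.3 to 178 CPM in the resident libraries. The B-cell and T-cell sums given above also did not overlap. The part of these other cells in the difference was not tested. The Ccr2 call was lost without converted library 1 or 3 or resident library 3 (adjusted p = 0.0593 to 0.0623), by limma-voom (0.147) and without a filter on low counts (0.0873). Of 25 genes of a monocyte list, 5 were lower (Ccr2, Plac8, F13a1, Ms4a6b and Itgal; 6 with 6 libraries), and the median was −0.07. The count of 5 fell to 3 without converted library 1 or 3 or resident library 3, by limma-voom and without a filter on low counts. Plac8, a small cysteine-rich protein, measured 3.64, 9.56 and 2.98 CPM against 34.8, 32.6 and 39.01 CPM (log2 −2.71 ± 0.39, adjusted p = 0.00511), while its monocyte-derived level was 3.76 to 6.35 CPM. Plac8, F13a1 (coagulation factor XIII) and Ms4a6b kept their calls in every such fit.

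A cluster of C-type lectin genes on chromosome 8 (3707064 to 3954746, GRCm38) held mostly lower calls. It contains Clec4g and the Cd209 genes, receptors for sugars on pathogens and glycoproteins, and 5 of its 6 tested genes were lower (3 of 6 with 6 libraries), with log2 differences from −3.72 to −1.83. Clec4g measured 4.44, 11.9 and 14.7 CPM in the converted and 102, 95.8 and 88.8 CPM in the resident libraries (log2 −3.21 ± 0.37, adjusted p = 0.0025), and was at most 0.324 CPM in the monocyte-derived ones. The converted libraries differed among themselves here: Cd209b measured 0.0997, 7.67 and 1.80 CPM in them against 42.97, 40.8 and 42.7 CPM. The Clec4g call held whichever library was left out. The Cd209b call (log2 −3.72 ± 0.76, adjusted p = 0.0219) was lost without converted library 3 or any resident library (0.0643 to 0.0897) and without a filter on low counts (0.121). Cd209a, at 16.8, 52.7 and 76.1 CPM against 178, 177 and 160.3 CPM, was not called (adjusted p = 0.101; 0.0369 by limma-voom). The Cd209 genes are near copies, so reads may be split among them.

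Of 16 tested genes of the MHC class II pathway, which loads and presents peptides to CD4 T cells, 8 were lower and none higher (10 and none with 6 libraries), with a median log2 difference of −0.79. Ciita, the master transcription factor of the pathway, measured 16.7, 14.9 and 15.1 CPM in the converted and 35.7, 33.7 and 43.95 CPM in the resident libraries (log2 −1.28 ± 0.24, adjusted p = 0.0144). Cd74, the invariant chain, measured 964, 830.5 and 734 CPM against 1862, 1909 and 2434 CPM (log2 −1.30 ± 0.16, adjusted p = 0.00265). The peptide-binding chain H2-Eb1 measured 112, 105 and 102 CPM against 271, 271 and 341 CPM (log2 −1.47 ± 0.14, adjusted p = 0.000919). In each of these genes all 3 converted libraries were below all 3 resident ones. The falls were larger for the peptide-editing chains H2-DMb2 (log2 −3.21 ± 0.38) and H2-Oa (−2.83 ± 0.38) and smaller for H2-Ab1 (−0.76 ± 0.16).

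B cells and dendritic cells also express this pathway, and both of their sums were also lower in the converted libraries. Converted library 2, with the highest B-cell sum of its group, was also the highest for H2-DMb2, at 13.9 CPM against 7.58 and 7.20 CPM, and for H2-Oa, at 1.79 CPM against 1.30 and 1.35 CPM. It was between the others for Cd74, H2-Eb1 and H2-Ab1 and the lowest for Ciita. The dendritic cell sum was 37.4, 69.1 and 91.7 CPM in converted libraries 1, 2 and 3. In the same order, Cd209a alone, of the lectin cluster above, measured 16.8, 52.7 and 76.1 CPM. Cd74, H2-Eb1 and H2-Ab1 fell in that order, and Ciita, H2-DMb2 and H2-Oa neither rose nor fell steadily in it. The part of B-cell and dendritic cell transcripts in the pathway's difference was not tested. The count of 8 fell to 5 without converted library 3 or resident library 3. H2-Ab1 was not called without converted library 2 or 3 or any resident library (adjusted p = 0.0548 to 0.106), nor Ciita without any 1 converted library or without resident library 3 (0.0514 to 0.0679).

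Of 20 tested MHC class I genes, which present peptides to CD8 T cells, 5 were lower (B2m, H2-K1, H2-Q6, H2-Q7 and H2-T23) and none higher, with a median of −0.34, and 16 were lower with 6 libraries and 14 by DESeq2. B2m, the light chain, measured 1972, 2138 and 1834 CPM in the converted and 3596, 3123 and 3203 CPM in the resident libraries, 1.67-fold lower (log2 −0.74 ± 0.13, adjusted p = 0.0114). H2-K1 was 1.37-fold lower (log2 −0.46 ± 0.08, adjusted p = 0.0127). The groups did not overlap for either gene. The count of 5 fell to 1 without converted library 1 or 3 or resident library 1 or 3 and to 3 without resident library 2, and rose to 11 without monocyte-derived library 1. Without converted library 1 or 3 or resident library 1 or 3, neither B2m (adjusted p = 0.0503 to 0.0622) nor H2-K1 (0.0578 to 0.0728) was called. H2-Q genes are near copies of one another.

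Of 49 tested interferon-stimulated genes, which encode antiviral sensors and effectors, 19 were lower in the converted libraries. Interferons act through the factor ISGF3, of which STAT2 is a part, and it binds a promoter element with a paired GAAA. The promoters below are of 4 such genes that were lower in the converted libraries, and are shown because they carry that element within 250 bases before the start of the gene. The letters searched, GAAA, any 2 bases, GAAA, on both strands, are in capitals with overlapping matches joined. Sequences are from RefSeq on GRCm38.p6, each printed 5′ to 3′ along the strand of its gene.
Stat2, chr10:128270248-128270315, plus strand: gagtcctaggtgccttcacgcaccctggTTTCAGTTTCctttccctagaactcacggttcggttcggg
Isg15, chr4:156200845-156200926, minus strand: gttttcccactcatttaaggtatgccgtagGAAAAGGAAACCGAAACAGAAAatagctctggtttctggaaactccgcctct
Ifit1, chr19:34640755-34640843, plus strand: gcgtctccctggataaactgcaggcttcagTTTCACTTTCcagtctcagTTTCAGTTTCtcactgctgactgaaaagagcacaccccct
Cxcl10, chr5:92349063-92349132, minus strand: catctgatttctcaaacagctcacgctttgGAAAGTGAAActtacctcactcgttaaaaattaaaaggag
Of the 49 genes of the list that were tested, 35 had a promoter in the RefSeq table, and 20 of these held the letters, as did 936 of all 27025 genes with an entry (3.46%). Counted by promoter, since a gene can have several, these were 20 of 42 and 978 of 32851 (2.98%). Among the 11 genes called lower that had a promoter, 6 held them. A match is a run of letters and not a measured binding site.

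Of these 49 genes 19 were lower and none higher (28 and 1 with 6 libraries), with a median log2 difference of −0.75, and 47 lay below 0. Stat2 itself measured 30.6, 38.2 and 28.02 CPM in the converted and 79.9, 72.7 and 88.3 CPM in the resident libraries, 2.49-fold lower (log2 −1.31 ± 0.14, adjusted p = 0.00111). Usp18, a brake on interferon receptor signalling, measured 9.62, 20.3 and 11.4 CPM against 45.7, 35.9 and 43.7 CPM (log2 −1.60 ± 0.27, adjusted p = 0.00904). Both were called whichever library was left out, and in both the converted libraries lay below all resident ones. Among effectors, the ubiquitin-like modifier Isg15 measured 7.73, 14.2 and 5.795 CPM against 27.2, 18.5 and 24.8 CPM (log2 −1.34 ± 0.29, adjusted p = 0.0262). Ifit1, which binds foreign RNA, measured 2.24, 5.096 and 1.46 CPM against 16.4, 7.45 and 11.8 CPM (log2 −2.01 ± 0.44, adjusted p = 0.0291). For these, as for Stat2 and Usp18, converted library 2 was the highest of the converted and resident library 2 the lowest of the resident ones. The nucleic acid sensors Zbp1 (log2 −1.22 ± 0.21) and Ddx58, which encodes RIG-I (−0.75 ± 0.13), were lower too.

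The count of 19 was 4, 23 and 6 without converted libraries 1, 2 and 3, and 3, 11 and 2 without resident libraries 1, 2 and 3. Isg15 and Ifit1 were not called without converted library 1 or 3 or resident library 1 or 3 (adjusted p = 0.073 to 0.121 and 0.0848 to 0.129), nor Ifit1 without a filter on low counts (0.0527). Zbp1 was not called without converted library 1 or resident library 1 or 3 (0.0521 to 0.0527), nor Ddx58 without resident library 3 (0.0558). Ifng, the type II interferon that lymphocytes make, was present as 3 reads in the converted and 48 in the resident libraries, and at 0, 0.0525 and 0.113 CPM against 1.05, 0.577 and 0.881 CPM (log2 −3.81 ± 0.89, adjusted p = 0.0353). That call held in no fit that left out a converted or resident library (0.0634 to 0.127).

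**Figure D4:**
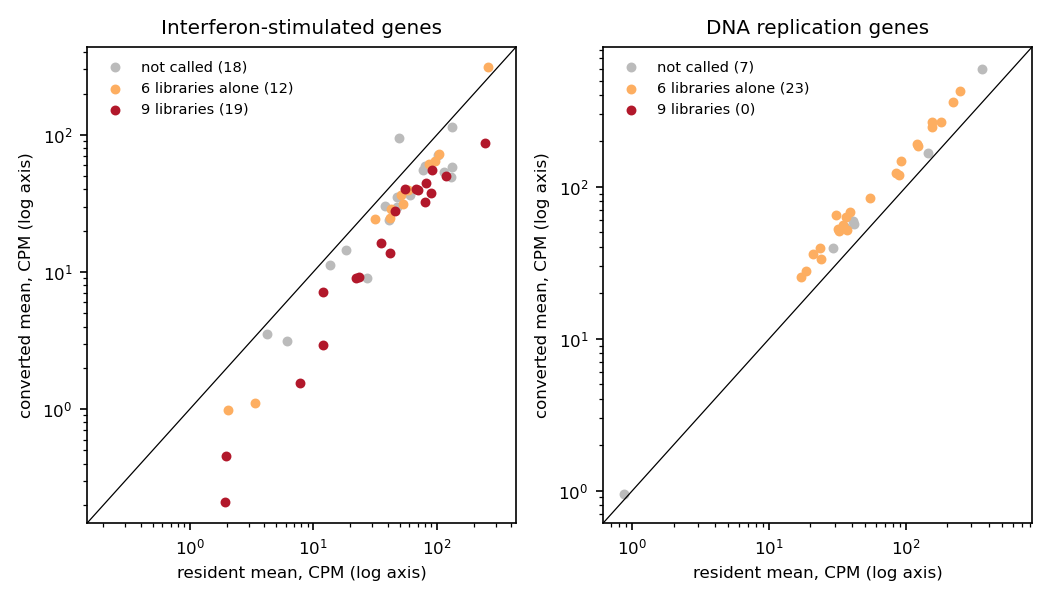
Mean level in the converted libraries (y axis) against that in the resident libraries (x axis), both in CPM on log scales, for the 49 interferon-stimulated genes (left) and the 30 DNA replication genes (right) tested; the line marks equal levels. Of the interferon-stimulated genes 47 lie below the line, and all 30 replication genes lie above it, though none of the latter was called with 9 libraries and 23 were with 6.

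Genes of DNA replication lay above 0 together, by a margin that the 9-library fit did not call. E2F factors drive these genes at the start of S phase. Both promoters below are shown because they hold an E2F-type motif (TTTCGCGC or TTTGGCGC, either strand, overlapping matches joined) in capitals in the 250 bases before the start (RefSeq, GRCm38.p6, strand of the gene).
Mcm5, chr8:75109326-75109397, plus strand: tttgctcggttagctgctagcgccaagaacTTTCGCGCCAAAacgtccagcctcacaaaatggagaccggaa
Mcm6, chr1:128359715-128359845, minus strand: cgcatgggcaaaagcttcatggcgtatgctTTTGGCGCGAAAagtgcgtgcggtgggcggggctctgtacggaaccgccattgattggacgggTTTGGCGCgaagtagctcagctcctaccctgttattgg
These letters were in the promoters of 5 of the 24 replication genes with an entry (Mcm5, Mcm6, Rfc3, Pola1 and Uhrf1) and of 0.759% of all genes with an entry, and in 0.655% of all promoters.

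All 30 replication genes had a positive log2 difference, with a median of 0.65, and none passed the 9-library test. DESeq2 called 5 of them and limma-voom 2, and 22 had an unadjusted p under 0.05 in the edgeR fit. With the 6 libraries alone 23 were higher. Mcm6, a subunit of the replicative helicase, measured 393, 524 and 360 CPM in the converted and 226, 279 and 242 CPM in the resident libraries, and 84.5 to 181 CPM in the monocyte-derived ones (log2 0.78 ± 0.25, adjusted p = 0.111 with 9 libraries and 0.0115 with 6). Mcm5, a further subunit, measured 248, 330 and 226 CPM against 141, 169.5 and 154 CPM (log2 0.79 ± 0.20, adjusted p = 0.0554 with 9 libraries, 0.00919 with 6, 0.00594 by DESeq2). No converted library overlapped a resident one in either gene. Without monocyte-derived library 1, 19 members were higher, and 3 without monocyte-derived library 3, but none without any 1 of the others.

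Genes of mitosis showed the same arrangement at a smaller margin. All 30 had positive log2 differences (median 0.54), none was called with 9 libraries by edgeR, DESeq2 or limma-voom, 2 had an unadjusted p under 0.05, and 18 were higher with 6 libraries. Top2a, the topoisomerase of condensing chromosomes, measured 293, 465 and 339.7 CPM in the converted and 208, 227 and 216 CPM in the resident libraries (log2 0.76 ± 0.36, adjusted p = 0.272 with 9 libraries and 0.0178 with 6). Mki67, the proliferation marker, was at 143, 204 and 155 CPM against 127, 121 and 140.3 CPM and was called in neither fit (adjusted p = 0.469 and 0.0984). Converted library 2 was the highest for Mcm5, Mcm6, Top2a and Mki67. Without monocyte-derived library 1, 15 members of the mitosis list were called higher.

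The main products of IL-4-driven alternative activation were not called. Chil3, a chitinase-like protein and the transcript with most reads in every library, measured 84606, 81413 and 102463 CPM in the converted and 78009, 84671 and 73618 CPM in the resident libraries (log2 0.18 ± 0.21, adjusted p = 0.677). Arg1, arginase 1, stood at 13138 ± 865 and 12596 ± 945 CPM (SD, n = 3 each; log2 0.06 ± 0.12). Retnla, a resistin-like protein, measured 44237, 30298 and 45542 CPM against 52145, 50666 and 50009 CPM (log2 −0.35 ± 0.37, adjusted p = 0.646). Chil3 and Arg1 overlapped between the groups, and for Retnla all converted libraries were below the resident ones by less than the fit could call. The mannose receptor Mrc1 was not called either (log2 −0.86 ± 0.26, adjusted p = 0.0936), except by DESeq2 (0.0148).

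Within this list of 38 genes, 4 were lower and 1 higher (7 and 1 of 35 with 6 libraries, 9 and 1 by DESeq2). The median was −0.20. Over all genes, 6.07% were called with 9 libraries, 16.2% with 6 and 10.3% by DESeq2. Il4ra, the receptor chain through which IL-4 acts, measured 68.8, 76.9 and 74.9 CPM in the converted and 139, 138 and 167 CPM in the resident libraries, 2.01-fold lower (log2 −1.01 ± 0.12, adjusted p = 0.00219). Pdcd1lg2, the checkpoint ligand PD-L2, measured 0.947, 1.16 and 0.957 CPM against 9.19, 4.301 and 8.66 CPM (log2 −2.85 ± 0.36, adjusted p = 0.00307), and the monocyte-derived libraries held 72.2 to 121 CPM. Both kept their calls whichever library was left out, and in both every converted library was below every resident one. B cells also carry the IL-4 receptor. The remaining calls of the list were Ear2 and Fn1, given above, and the coactivator Ppargc1b (log2 −0.50 ± 0.12, adjusted p = 0.0432), whose call held in no fit that left out a converted or resident library (0.0809 to 0.196).

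Of 23 tested immediate early genes, which respond within minutes to stimulation and also to the handling of cells during isolation, 12 were lower and none higher (14 and none with 6 libraries), with a median of −0.57. Egr1, a zinc-finger transcription factor, measured 16.4, 6.36 and 13 CPM in the converted and 137, 148 and 141 CPM in the resident libraries, 11.9-fold lower (log2 −3.57 ± 0.28, adjusted p = 0.000612). The AP-1 subunits Fosb and Jun followed: Fosb at 7.53, 3.099 and 8.27 CPM against 47.9, 48.8 and 48.7 CPM (log2 −2.94 ± 0.32), and Jun at 178, 121 and 212 CPM against 382, 434 and 412 CPM (log2 −1.27 ± 0.18). Jund was 1.79-fold lower (log2 −0.84 ± 0.11). Resident libraries were close to one another in these genes, and converted library 2 was the lowest of the 6 converted and resident libraries. The list summed to 4009, 3021 and 3880 CPM in the converted and 5830, 5892 and 5878 CPM in the resident libraries. All 4 genes were called whichever library was left out, and the count of 12 fell to 7 without resident library 3.

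Among secreted inflammatory mediators, 3 of 25 were lower and none higher (8 and 1 of 22 with 6 libraries, 5 and 1 by DESeq2). The count was 1 without converted library 2 or 3 or resident library 3, and 5 without monocyte-derived library 1 or 3. Ccl2, the chemokine that draws CCR2-bearing monocytes, measured 11.2, 6.99 and 7.37 CPM in the converted and 27.2, 24.1 and 31.3 CPM in the resident libraries (log2 −1.69 ± 0.26, adjusted p = 0.00698). It held its call whichever library was left out. Its neighbour Ccl7 (log2 −1.84 ± 0.37, adjusted p = 0.0207) and the interferon-induced Cxcl10 (−2.10 ± 0.51, adjusted p = 0.0417) were also lower. Ccl7 was not called without any 1 converted library or without resident library 3 (adjusted p = 0.058 to 0.0811), by limma-voom (0.159) or without a filter on low counts (0.103), and Cxcl10 in no fit that left out a converted or resident library (0.0548 to 0.196), nor among protein-coding genes alone (0.0509). The leukotriene-degrading Cyp4f18 stood at 7.42 ± 0.941 CPM in the converted and 23.8 ± 4.11 CPM in the resident libraries (SD, n = 3 each; log2 −1.69 ± 0.24), and kept its call whichever library was left out.

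Genes higher in the converted libraries were all protein-coding, and few were large. Lpl, lipoprotein lipase (chromosome 8, 68880491 to 68907448), had the largest rise among genes with a mean of at least 20 CPM in the converted libraries. It measured 122, 29.4 and 99.6 CPM in the converted and 11.6, 7.34 and 14.05 CPM in the resident libraries, and 811 to 1984 CPM in the monocyte-derived ones. Converted library 2 was well below the other converted libraries and above every resident one (log2 2.93 ± 0.54, adjusted p = 0.0144). The call was lost without any 1 resident library (0.059 to 0.0682), by limma-voom (0.0546) and without a filter on low counts (0.0851).

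Jam2, Pilra and Mmgt1 were higher in every fit with a library left out. Jam2, a junctional adhesion molecule (chromosome 16, 84774123 to 84825928), measured 112, 68.2 and 104 CPM in the converted and 28.4, 29.6 and 36.1 CPM in the resident libraries, and 2.13 to 4.62 CPM in the monocyte-derived ones (log2 1.59 ± 0.24, adjusted p = 0.00677). Pilra, an inhibitory receptor for sialylated glycoproteins, measured 44.8, 33.3 and 32.5 CPM against 13.04, 18.3 and 17.2 CPM (log2 1.19 ± 0.18, adjusted p = 0.0053). Mmgt1, a subunit of the membrane protein insertion complex of the endoplasmic reticulum, was at 46.7 ± 3.34 and 24.1 ± 2.33 CPM (SD, n = 3 each; log2 0.95 ± 0.13, adjusted p = 0.00307). In none of the 3 did the groups overlap. Jam2 and Pilra stood above both other groups, with Pilra at 16.3 to 21.7 CPM in the monocyte-derived libraries. Mmgt1 overlapped the monocyte-derived libraries (40.0 to 53.2 CPM).

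The other genes among the 12 largest rises at this level were Vill, Igfbp4, Slc43a3, Cdca7, Btbd11, Htra3, Mtus1 and Ctdspl. Their log2 differences ran from 1.27 ± 0.27 for Vill, a villin-like actin regulator, to 0.96 ± 0.17 for Ctdspl, a phosphatase. Slc43a3, a purine base transporter, measured 43.6, 70.5 and 69.8 CPM against 30.3, 28.4 and 29.3 CPM (log2 1.06 ± 0.22, adjusted p = 0.0242). Htra3, a secreted serine protease, measured 102, 60.1 and 91.4 CPM against 40.5, 42.3 and 45.96 CPM (log2 0.98 ± 0.21, adjusted p = 0.028), with at most 1.23 CPM in the monocyte-derived libraries. None of these 8 kept its call in every fit with 1 library left out: Slc43a3 was lost without converted library 2 or 3 or any resident library (adjusted p = 0.0767 to 0.108) and Htra3 without converted library 1 or 3 or any resident library (0.0979 to 0.137). Vill was lost without converted library 1 or 3 or any resident library (0.0828 to 0.129), by limma-voom (0.0515) and without a filter on low counts (0.0991). Ctdspl was lost without the same 5 libraries (0.0511 to 0.0679). The adjusted p of Cdca7 was 0.0543 to 0.115 without converted library 1 or 2 or any resident library, that of Mtus1 0.0776 to 0.127 without converted library 2 or 3 or any resident library, and that of Btbd11 0.054 to 0.121 without any converted library or resident library 1 or 3. Igfbp4 (log2 1.16 ± 0.29, adjusted p = 0.045) was lost with the 6 libraries alone (0.0568) and without monocyte-derived library 2, converted library 1 or 2 or any resident library (0.0599 to 0.175).

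Below 20 CPM, 3 further genes rose by more than 2 on the log2 scale and were chosen after their values were seen. Gdf3, a ligand of the TGF-beta family, measured 13.8, 4.73 and 6.75 CPM in the converted and 0.5502, 0.2098 and 0.489 CPM in the resident libraries (log2 4.32 ± 0.67, adjusted p = 0.00746; 0.101 by limma-voom). The monocyte-derived libraries held 19.5 to 62.2 CPM. Msantd3 measured 17.1, 13.8 and 24.7 CPM against 3.69, 3.99 and 3.52 CPM (log2 2.31 ± 0.27, adjusted p = 0.00196). Chst13, a chondroitin sulfotransferase, measured 20.8, 10.1 and 16.4 CPM against 3.08, 4.72 and 2.398 CPM (log2 2.21 ± 0.33, adjusted p = 0.00562). The groups did not overlap in any of them, and all 3 were called whichever library was left out. Gdf3 and Lpl lay between the resident and the monocyte-derived levels, while Msantd3 and Chst13 were above both.

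Vitamin A is turned by retinol and retinaldehyde dehydrogenases into retinoic acid, which sustains Gata6. Of 16 tested retinoid genes, 2 were lower and 1 higher (the same counts with 6 libraries). Rdh12, a retinol dehydrogenase, measured 0.648, 2.21 and 1.18 CPM in the converted and 10.5, 12.9 and 16.6 CPM in the resident libraries (log2 −3.31 ± 0.48, adjusted p = 0.0052), and was called whichever library was left out. Aldh1a2, the retinaldehyde dehydrogenase that makes retinoic acid, measured 10.4, 46.8 and 16.8 CPM against 103, 81.8 and 99.3 CPM (log2 −1.94 ± 0.45, adjusted p = 0.036). Converted library 2 lay above the other 2 converted libraries, and none reached a resident one. The Aldh1a2 call was kept in only 2 of the 9 fits with a library left out, those without converted library 2 or monocyte-derived library 3. It was lost in the others (0.0538 to 0.126), with the 6 libraries alone (0.0852) and without a filter on low counts (0.18). Cyp26b1, which degrades retinoic acid, measured 5.48, 4.31 and 5.18 CPM against 2.59, 1.47 and 1.66 CPM (log2 1.39 ± 0.33, adjusted p = 0.0386), and its call held in no fit that left out a converted or resident library (0.0728 to 0.185) and was missed among protein-coding genes alone (0.0516).

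Pattern receptors were called about as often as all genes (6.07%), and complement and Fc receptor genes more often. Of 30 pattern receptors, the scavenger receptor Msr1 (log2 0.60 ± 0.14, adjusted p = 0.0376) and Tlr13, a sensor of bacterial ribosomal RNA (0.57 ± 0.13, adjusted p = 0.0324), were higher and none was lower (4 and none with 6 libraries, 4 and 1 by DESeq2). Of 19 complement genes, Itgax and the decay-accelerating factor Cd55 (log2 −1.99 ± 0.39, adjusted p = 0.0187) were lower and 1 was higher. With 6 libraries 3 were lower and 1 higher, and the higher call was lost in some fits with 1 library left out. Msr1 held its call in no fit without a converted or resident library (0.061 to 0.172) and Cd55 was lost without converted library 1 or 3 or any resident one (0.0674 to 0.0807). Tlr13 was lost without converted library 1 or 3 or any resident library (0.0606 to 0.148). Upper-quartile scaling also missed Msr1 and Tlr13 (0.0508 and 0.0506), and a stricter filter Msr1 (0.0556). Of 17 Fc receptor genes 5 were lower (Fcer1a, Fcer2a, Fcrls, Fcrl5 and Fcmr; 7 with 6 libraries, and 3 without resident library 3). Among them Fcrl5 and Fcmr, receptors of B cells, had log2 differences of −4.30 ± 0.41 and −2.83 ± 0.35 and kept their calls in every fit with a library left out.

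Lists of fatty acid oxidation, oxidative phosphorylation, sterol synthesis, lysosome, glycolysis and antioxidant genes were called less often than all genes (6.07%) with 9 libraries. Of 32 lipid uptake genes 2 were higher and none lower, and the retinoid genes are given above. Over all genes the share called was 16.2% with 6 libraries, and 20.8% had an unadjusted p under 0.05 with 9. None of 27 genes of fatty acid oxidation was called by edgeR with 9 or 6 libraries, by DESeq2 or by limma-voom, although 5 had an unadjusted p under 0.05. None of 46 genes of oxidative phosphorylation (median −0.07), 29 of sterol synthesis (−0.23) and 34 of the lysosome (−0.11) was called with 9 libraries, and 8, 1 and 4 were lower with 6 (1 lysosomal gene was higher). By unadjusted p under 0.05 the 9-library fit held 6, 8 and 3 of these genes, and only the share of sterol synthesis was above that of all genes. DESeq2 called 0, 1 and 1. Of 20 glycolytic genes 1 was lower (2 with 6 libraries), Pfkfb3, which makes the activator of glycolysis (log2 −0.60 ± 0.14, adjusted p = 0.036). That call was lost without converted library 1 or 3 or any resident library (0.103 to 0.149). Of 24 antioxidant genes 1 was higher and none lower (4 and 1 with 6 libraries). It was Txnrd1, thioredoxin reductase (log2 0.46 ± 0.08, adjusted p = 0.0122), which held its call except without resident library 1 (0.0592) or 3 (0.0776). Ribosomal protein genes leaned lower by a small amount: 49 of 50 had a negative log2 difference (median −0.25), 4 were lower with 9 libraries (Rps27, Rps20, Rpl13 and Rpl23) and 33 with 6, against 11 by DESeq2. The count was 15 and 11 without monocyte-derived libraries 2 and 1, 1 without any 1 converted library or resident library 1 or 2, and 0 without resident library 3. Rps27 measured 58.9, 54.3 and 49.3 CPM against 82.3, 80.8 and 93.5 CPM (log2 −0.66 ± 0.11, adjusted p = 0.00883), a call that was lost without resident library 3 (0.0536).

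**Figure D5:**
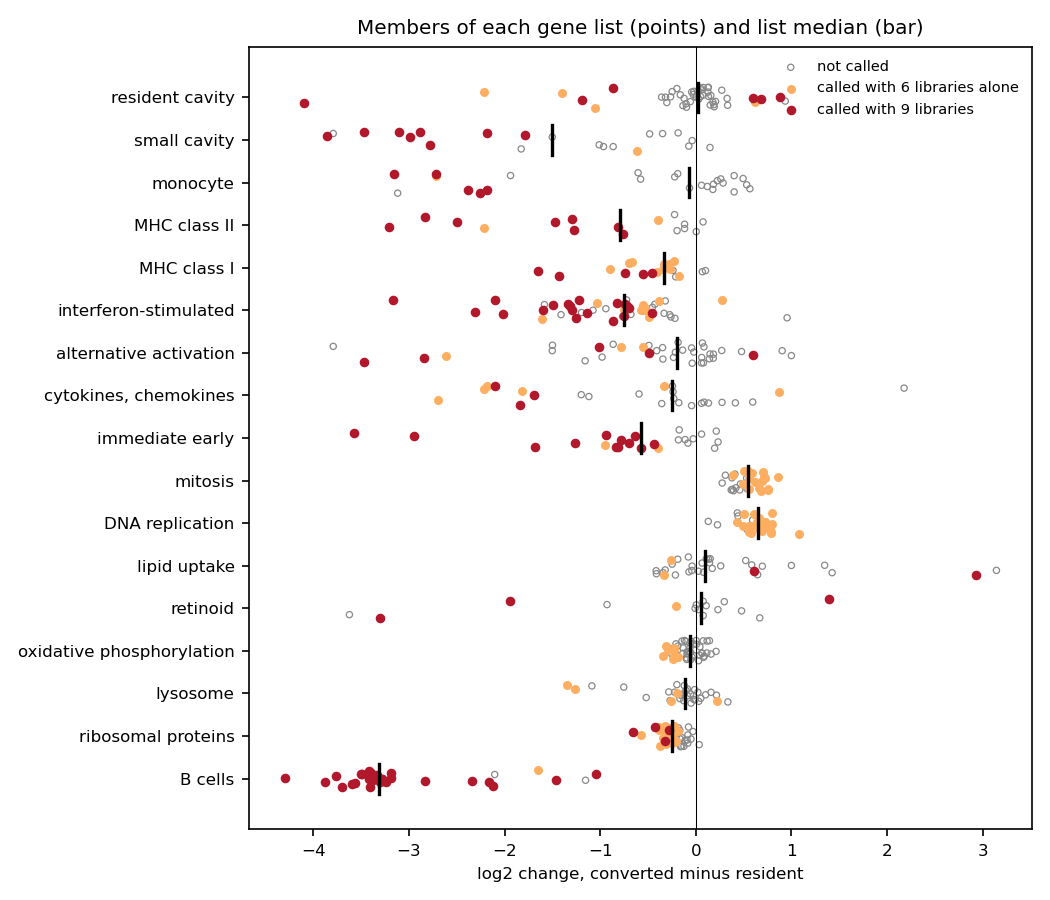
Log2 difference, converted minus resident (x axis), of the tested members (points) of 17 gene lists (rows) with each list's median (bar). Dark red points were called with 9 libraries, orange points with the 6 libraries alone and open points in neither; the B-cell list has the lowest median (−3.32), and the mitosis (0.54) and DNA replication (0.65) medians lie to the right of 0 with no red point.

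The calls in the 2 directions lay at different levels of expression. Of the 1590 genes under 1 CPM, 6.16% were lower and 0.0629% higher. Of the 1794 genes between 100 and 1000 CPM, 2.17% were lower and 4.79% higher. By chromosome, calls were most frequent on 6 and 12 (10.7% each) among the numbered chromosomes, which carry immunoglobulin segments, and were 6.34% and 4.65% there once segments were left out.

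Genes present in 1 group and nearly absent from the other were all on the resident side. At most 3 reads over the 3 converted libraries, together with a call, were found for 29 genes, of which 14 were antigen receptor segments and 15 protein-coding, and for no gene in the reverse direction. Grk3, a kinase of G-protein-coupled receptors, had no read in the converted libraries and 0.8803, 0.944 and 0.832 CPM in the resident ones, at least 16.8-fold lower when 3 reads are taken as the floor of the summed converted libraries (adjusted p = 0.00225). It was at 7.40 to 10.9 CPM in the monocyte-derived libraries. The lincRNA with the largest fall, Gm15228, was at 0.106 ± 0.00645 CPM in the converted and 2.16 ± 0.303 CPM in the resident libraries (SD, n = 3 each; log2 −4.27 ± 0.44, adjusted p = 0.00107). Grk3 and Gm15228 were called whichever library was left out.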

How the data were processed

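TopHat2 2.1.0 and HTSeq (no version given) were used by the authors with GRCm38 to make the deposited read counts, 1 number per gene and library, per the submitters' processing notes. No source used here states the annotation or strand setting of the counting, so near copies, overlapping genes and antisense partners may share reads. Symbols and positions come from GENCODE M21, which held 47310 of 47729 identifiers. Summary lines of unassigned reads (4.02% to 5.66% in no gene, 4.47% to 4.68% ambiguous) were dropped.

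The test was edgeR 4.0.16 in R 4.3.3: filterByExpr (minimum count 10, total 15), TMM scaling, and the robust quasi-likelihood F-test on all 9 libraries together, with 6 residual degrees of freedom. The contrast was converted minus resident, adjusted by Benjamini-Hochberg over 13223 genes and called at 0.05. CPM are reads per 1000000 of the TMM-scaled library. The procedure was run on simulated counts in which the groups shared a mean except for added changes. Unlike these data, they held no distant monocyte-derived group, and their result is not used here. No pair of replicate libraries matched within sampling noise.

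The comparison and its gene lists were chosen with earlier results of these data known, and lists were given by counts and medians without a set test. The genes named are the 12 largest called changes per direction (protein-coding, groups apart, mean of 20 CPM or more where higher; predicted genes, clones, olfactory genes, receptor segments and markers of other cells left out), fixed key genes, the top 4 called members of each list per direction or else its 2 most abundant, genes nearly absent from 1 group above 5 CPM, and the top 3 lincRNAs. Chosen after their values were seen were Ciita, Isg15, Ifit1, Ifng, Mcm5, Mki67, Cd209d, Napsa, Dpp4, Itgal, Grk3, Gdf3, Msantd3, Chst13, H2-T23, Csf1r, Itgam, Fcgr1, the promoters, the genes named as having no read, and members of the T-cell, natural killer, mast cell and dendritic lists beyond the 2 most abundant. Alternatives were DESeq2 1.42.0, limma-voom (limma 3.58.1), other scalings and filters, the 6 libraries alone, a replicate block, a B-cell index, protein-coding genes alone, and leaving out each library. Some items are not reported here.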

Additional observations from a re-analysis of the deposited data

How the results depend on the processing

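The 803 calls (240 higher, 563 lower) became 1364 with DESeq2 (527 higher), 480 under a stricter filter (130 higher, 350 lower), 2067 with the 6 libraries alone (900 and 1167) and 245 to 1628 with 1 library left out (24 to 751 higher, 221 to 877 lower). Upper-quartile scaling left 133 higher genes. Other scalings, filters and tools stayed within 1.5 times. The replicate number showed no clear pairing: deviations of same-numbered converted and resident libraries correlated at 0.0651, 0.0134 and 0.0270. Those of differently numbered libraries correlated at −0.0890 to 0.0570. With so few libraries, pairing is not excluded. With the replicate block there were 530 calls (115 higher), and 2191 (999 higher, 1192 lower) with the block and the 6 libraries. With the summed B-cell level as a covariate (B-cell index), 0 genes were called by edgeR (0 higher, 0 lower) and 1163 had an unadjusted p under 0.05. The median standard error was 0.594 in place of 0.166, and the index does not overlap between the groups. Of the 803 calls, 211 then changed sign. Of the 91 called genes among the 108 examined, 46 kept their call in all 9 fits with a library left out, and no other setting reversed any of the 108.

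Under the B-cell index, 31 of these genes reversed, with adjusted p between 0.479 and 0.998. Since the index separates the groups almost as their labels do, these signs are not read as effects. Their log2 differences became 0.92 for Timd4, −0.28 for Lbp, 0.47 for Plac8, 1.78 for Cd209d, 0.17 for Napsa, 0.60 for Dpp4, 4.22 for Cd209b, 0.28 for H2-Q7, 0.38 for Zbp1, 0.26 for Ddx58, 0.52 for Isg15, 0.89 for Ifit1, 0.90 for Ifng, −0.48 for Jam2, −1.38 for Vill, −0.0189 for Htra3, −0.80 for Ctdspl, −0.39 for Cyp26b1, 1.28 for Aldh1a2, 1.79 for Rdh12, −0.42 for Msr1, −0.28 for Tlr13, 1.74 for Cd55, 4.09 for F2r, 0.25 for Pfkfb3, 0.96 for Mzb1, 1.56 for Gimap3, 0.60 for Ets1, 0.43 for Ighm, 0.53 for Ms4a1 and 0.94 for Lck. With 3 libraries a group, and 3 reads or fewer per group for the rarest genes, small differences and genes under 1 CPM are the least certain.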
